A study of Mus musculus with 8 samples.

Results

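The genes described here are listed as spermatogonial and early germ cell genes: Dmrt1, Stra8, Mcam, Zbtb16, Ddx4, Dazl, Id4, Uchl1, Crabp1 and Kit. They were taken as every probe set whose symbol in the array annotation is one of these names, a probe set being several short probes designed for 1 transcript. This gave 12 probe sets of 12422, for 10 genes of the 8251 named by a single symbol. Dazl and Zbtb16 had 2 probe sets each and the other genes had 1.

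Total RNA from testis of Mus musculus was hybridised to 8 Affymetrix arrays in 4 groups of 2. The groups carry the names that follow Mus musculus in the sample titles: castaneus, domesticus, musculus and ssp, and ssp is left unexplained in the labels. The study asked which transcripts differ in testis among these house mice. The labels call the 2 arrays of a group technical replicates, so every p-value and interval here measures the spread between arrays and not between animals. The sources used here give no age or strain, nor how many animals each RNA came from.

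Spermatogonia are the mitotic germ cells at the base of the seminiferous tubule. A small undifferentiated fraction renews itself, helped by the repressor Zbtb16 (also called PLZF) and marked by Id4. Retinoic acid moves the cells on to a Kit-positive, differentiating state and later induces Stra8, which starts meiosis. Dazl and Ddx4 act on RNA through much of this path. In adult testis these cells are greatly outnumbered by spermatocytes and spermatids, so their transcripts make up a small part of whole-tissue RNA.

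Stra8, Ddx4 and Kit showed the clearest separations between groups, and none of the 10 genes passed the test across all probe sets. Stra8 was lowest in ssp, Ddx4 was lowest in castaneus and Kit was highest in musculus, each with both arrays of that group beyond the other 6. By limma, 0 of the 12 probe sets differed among the 4 groups (moderated F test, adjusted p under 0.05 and group means spanning at least 1 log2), against 1.76% of all 8874 probe sets tested. At an unadjusted p under 0.05 there were 3 of 12, against 15.9% of all. The lowest adjusted p among them was 0.131. Between pairs of groups, 0 of 72 comparisons passed where the share of all probe sets called was 0.676% for castaneus and domesticus, 0.947% for castaneus and musculus, 0.349% for castaneus and ssp, 0.744% for domesticus and musculus, 0.687% for domesticus and ssp, and 0.98% for musculus and ssp. At an unadjusted p under 0.05 there were 11 of 72, against 12.2% of all such comparisons. A group with both arrays above or below the other 6 was seen for 5 of the 12 probe sets, against 39.8% of all, so this count lay near the background. By direction, 1 of 12 set ssp below (Stra8; 5.17% of all), 1 ssp above (Crabp1; 6.42%), 1 castaneus below (Ddx4; 5.44%), 1 domesticus below (Uchl1; 5.52%) and 1 musculus above (Kit; 6.37%). The median span of group means was 0.76 log2 for the 12 and 0.81 for all tested.

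**Figure D1:**
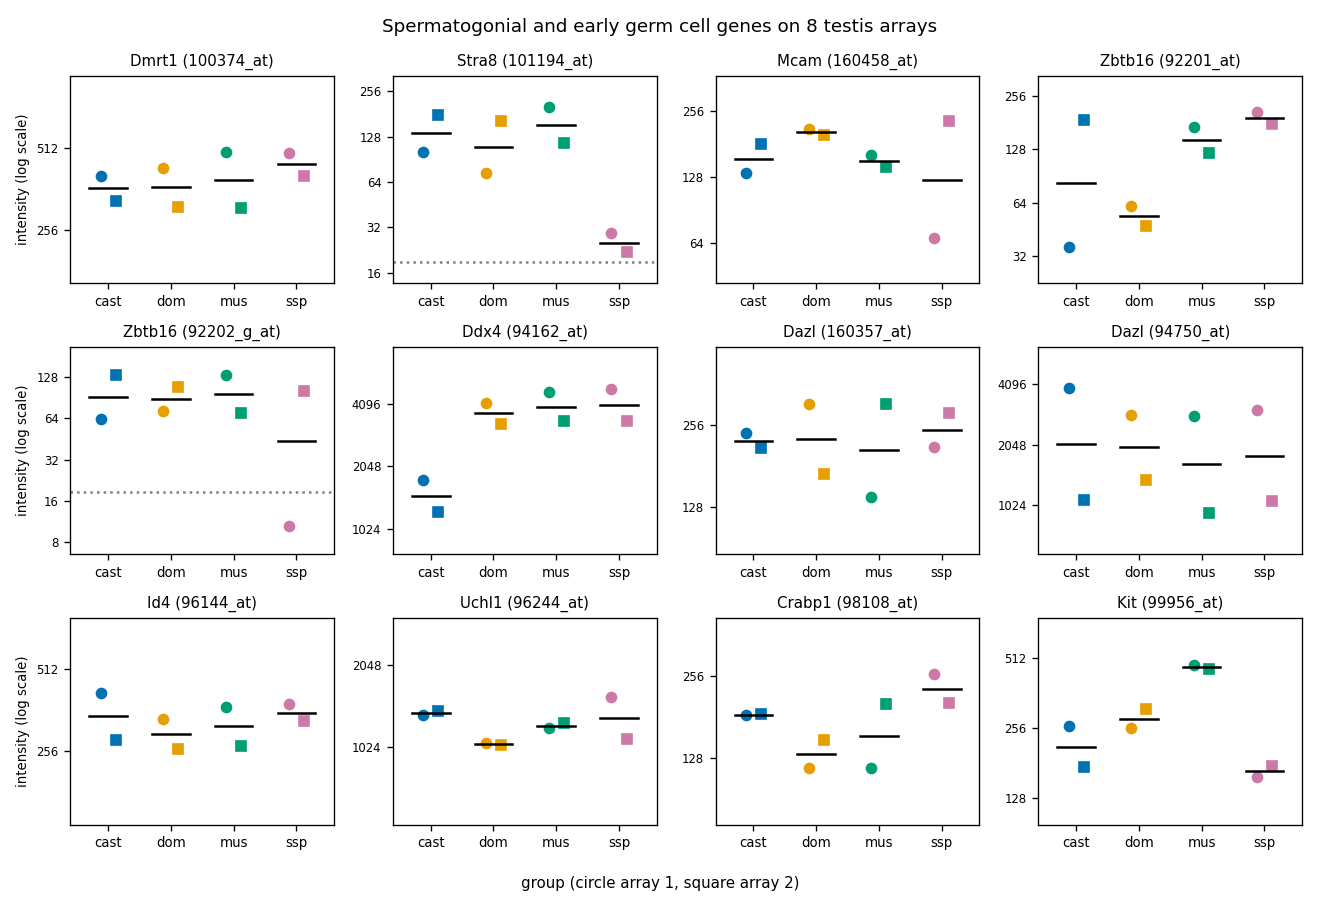
Intensity of each of the 12 probe sets (vertical axis, log scale) on the 8 arrays, by group (cast, castaneus; dom, domesticus; mus, musculus), with circles for array 1, squares for array 2, black lines for geometric means and a dotted line at the floor of 18.7. The ssp arrays of Stra8, the castaneus arrays of Ddx4 and the musculus arrays of Kit sit apart from the other 6. For Dazl 94750_at the circle lies well above the square in every group.

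Among the genes of the retinoic acid response, Stra8 was dim and was lowest in the ssp RNA. Stra8 encodes a retinoic acid-induced protein that germ cells need to enter meiosis. Its intensities were 101.4 and 179.4 on the castaneus arrays, 73.8 and 162.5 in domesticus, 202.0 and 116.9 in musculus, and 29.3 and 21.8 in ssp. The 2 ssp arrays lay below all others, while the other 3 groups overlapped each other. Musculus was 6.08-fold above ssp (95% confidence interval 2.56 to 14.4), castaneus 5.34-fold and domesticus 4.33-fold, each with a log2 standard error of 0.52. None passed the threshold (limma, adjusted p = 0.1, 0.159 and 0.181). In these whole-tissue samples, fewer cells of a type and less RNA per cell cannot be told apart. Probe sequences were not available here, so whether the probes bind the RNA of every group alike was not tested. This holds for all genes described.

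The size of the Stra8 difference rested on low intensities. The ssp values lay next to the floor of 18.7, to which lower values were raised, and with a floor of 37.8 the span of group means was 2.02 log2 in place of 2.60. Only 4 of the 8 arrays reached the brightness required for testing, none of them from ssp. The 3 other genes whose probe sets followed Stra8 most closely over the 8 arrays were Igkv14-111 (Pearson r = 0.984), Mpdu1 (0.966) and Mid1ip1 (0.959). These are the closest of all tested probe sets, so high values are given by the choice.

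The reference sequence before the annotated Stra8 start is shown because the gene is known as a retinoic acid target. It covers 250 bases on the plus strand of chr6:34920698-34920947 (RefSeq, GRCm38.p6, the C57BL/6J reference, not read from the mice of these samples). Capitals mark matches on either strand to the half-site AGGTCA of retinoic acid receptors and to the CCAAT box.
Stra8: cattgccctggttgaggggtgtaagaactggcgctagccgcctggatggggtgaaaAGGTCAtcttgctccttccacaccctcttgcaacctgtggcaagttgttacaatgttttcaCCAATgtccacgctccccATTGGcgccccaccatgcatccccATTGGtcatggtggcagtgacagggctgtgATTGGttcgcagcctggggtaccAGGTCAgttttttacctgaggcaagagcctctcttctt
The half-site occurred 2 times, 194 and 38 bases before the start. Of 32851 windows of this length in the table, 14.0% held at least 1 half-site and 1.36% held 2 or more. The CCAAT box occurred 4 times, and 33.8% of all windows held at least 1. A match of letters is a description and not a measured binding site.

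Crabp1, a cytosolic binding protein for retinoic acid, was highest in ssp, the group in which Stra8 was lowest. It read 183.8 and 185.9 in castaneus, 117.7 and 148.6 in domesticus, 117.4 and 201.4 in musculus, and 260.1 and 203.0 in ssp. Both ssp arrays lay above the other 6, by a margin of 203.0 against 201.4. The span from domesticus to ssp was 1.74-fold (95% confidence interval 0.985 to 3.06) and did not pass (limma, adjusted p = 0.418).

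Dmrt1, a DM-domain transcription factor of spermatogonia and Sertoli cells that holds back Stra8 in spermatogonia, gave no separation. Its values were 404.3 and 327.2 in castaneus, 431.8 and 311.7 in domesticus, 496.7 and 309.4 in musculus, and 492.8 and 405.0 in ssp. Domesticus and musculus overlapped every other group, while both castaneus arrays lay below both ssp arrays, by a margin of 404.3 against 405.0. The highest group mean, in ssp, was 1.23-fold the lowest, in castaneus, with a 95% interval of 0.695 to 2.17.

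Kit, the receptor of stem cell factor on differentiating spermatogonia, was highest in musculus and lowest in ssp. Its intensities were 475.5 and 457.8 in musculus, 254.5 and 307.7 in domesticus, 259.2 and 173.3 in castaneus, and 156.7 and 176.0 in ssp. The musculus arrays lay above all others, domesticus overlapped castaneus, and castaneus overlapped ssp. Musculus was 2.81-fold above ssp (95% interval 1.73 to 4.55), 2.20-fold above castaneus (1.36 to 3.57) and 1.67-fold above domesticus (1.03 to 2.70). Domesticus was 1.69-fold above ssp (1.04 to 2.73). The log2 standard error was 0.29, and none passed (limma, adjusted p = 0.0929, 0.167, 0.378 and 0.369). With only probe sets reaching the 60th percentile, musculus and ssp differed for Kit (limma, adjusted p = 0.0372). In that setting the F test called 309 of 5882 probe sets, against 156 of 8874 in the main fit.

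Kit RNA is not confined to germ cells: Leydig cells, the testosterone-making cells of the testis, and mast cells also carry it. Of 11 Leydig marker genes tested of 16 listed, 8 had both musculus arrays above the other 6 (6.37% of all probe sets), 4 had both ssp arrays below (5.17%), 2 passed the F test (1.76%), and none lay at the floor on all arrays. Their summed intensity was 22033 and 27084 on the musculus arrays, 9497 to 10748 in castaneus and domesticus, and 7638 and 8312 in ssp. Macrophage markers were also brightest in musculus by their sums, 5246 and 4493 against 2546 to 3652 elsewhere. Of 10 tested, 3 had both musculus arrays above the other 6 (6.37% of all probe sets) and 0 passed the F test (1.76%). The highest mean was in musculus for 9 of the 10, a share not counted over all probe sets. Of 10 mast cell markers listed, 9 were on the array and 3 were bright enough to be tested; their sum was 733 to 879 in musculus and 593 to 1227 in the others. The mast cell gene Tpsab1 was below the floor on all 8 arrays, while Cpa3, Cma1 and Mcpt4 were too dim to be tested. Of the 3 tested mast cell genes, 1 each had its highest mean in castaneus, musculus and ssp. Their sum was highest in castaneus, at 1008 and 1227. The untested Cpa3 had group means of 19.0 to 96.9 by 1 probe set, with the highest in musculus. The 4 blood markers tested of 10 listed summed to 14163 and 18054 in musculus and 1746 to 5859 elsewhere. The part of these cells in the Kit result was not tested. The closest probe sets of other genes to Kit were those of Irf8, a leukocyte transcription factor (r = 0.982 over 8 arrays), Dnajc3 (0.957) and Ess2 (0.954). As for Stra8, these are the closest of all tested probe sets, so high values are given by the choice.

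**Figure D2:**
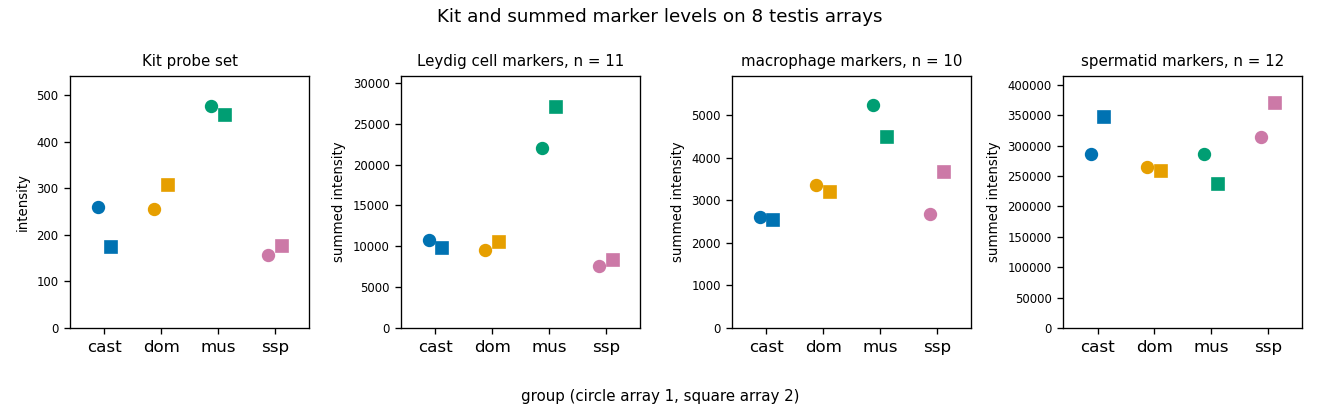
Kit intensity and the summed intensity of 11 Leydig cell, 10 macrophage and 12 spermatid marker probe sets (vertical axes) on the 8 arrays, by group (cast, castaneus; dom, domesticus; mus, musculus), with circles for array 1 and squares for array 2. Kit, the Leydig sum and the macrophage sum are highest on the 2 musculus arrays, and the spermatid sum is not.

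The values of the Kit ligand overlapped among the groups. Kitl, the Kit ligand made by Sertoli cells, read 171.0 and 119.5 in musculus and 104.5 to 166.8 in the other groups. Of 30 genes listed for Kit signalling, 21 were tested, 0 passed (limma; 1.76% of all probe sets) and 1 had an unadjusted p under 0.05 (15.9% of all), with a median span of 0.64 log2 against 0.81 for all tested. A count of 0 in a list of this size is near the background. The widest spans were those of the kinase Akt1, at 3.94-fold with its highest mean in musculus, of the exchange factor Sos1, at 3.56-fold and highest in ssp, and of the kinase Jak2, at 3.36-fold and also highest in ssp.

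The region before the Kit start is shown for comparison with that of Stra8. It covers 250 bases on the plus strand of chr5:75574737-75574986 (RefSeq, GRCm38.p6), for the first of 2 annotated starts, and capitals mark the GC box GGGCGG.
Kit: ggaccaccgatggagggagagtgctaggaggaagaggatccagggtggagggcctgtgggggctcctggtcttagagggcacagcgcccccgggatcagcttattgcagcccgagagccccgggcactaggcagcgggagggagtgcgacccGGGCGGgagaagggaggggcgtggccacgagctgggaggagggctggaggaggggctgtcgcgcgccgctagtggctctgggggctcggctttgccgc
This window held 1 GC box, 98 bases before the start, and no match to the retinoic acid half-site or the CCAAT box on either strand. A GC box was present in 32.7% of all windows.

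Among the RNA regulators of germ cells, Ddx4 was lowest in castaneus and Dazl varied within groups. Ddx4, the mouse vasa homologue, is an RNA helicase of germ granules that protects the germline from transposons. It read 1753.0 and 1238.4 in castaneus, 4144.2 and 3270.3 in domesticus, 4665.9 and 3379.0 in musculus, and 4825.1 and 3369.3 in ssp. Both castaneus arrays lay below every other array, and the remaining 3 groups overlapped each other. Domesticus was 2.50-fold, musculus 2.69-fold and ssp 2.74-fold above castaneus, with 95% intervals of 1.42 to 4.41, 1.53 to 4.76 and 1.55 to 4.83. The log2 standard error was 0.34, and the adjusted p was 0.197, 0.148 and 0.181 (limma). With a trended and robust variance model in limma, Ddx4 differed among the groups (adjusted p = 0.0216) and in these 3 pairs (0.0356, 0.0192 and 0.0321). By the F test that model called 383 of all 8874 probe sets, against 156 in the main fit.

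The summed level of later germ cell markers was not lowest in castaneus. The 12 spermatid markers tested summed to 286503 and 346393 in castaneus and to 236934 to 370291 in the other groups. The sum over 10 other germ cell RNA regulators was 71430 and 67644 in castaneus and 58290 to 80440 elsewhere. Such sums are carried by their brightest genes. Of those 10 regulators, of 27 listed, 0 passed (limma; 1.76% of all probe sets) and 1, or 10%, had an unadjusted p under 0.05 (15.9% of all). The median span was 0.49 log2, against 0.81 for all tested. The widest were the spermatid helicase Ddx25, at 2.18-fold with its highest mean in ssp, the Dazl-associated Dazap1, at 1.82-fold, and the translational repressor Pum2, at 1.61-fold.

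The region before the Ddx4 start was 70.4% G and C, against 70.8% for Kit and a range from 48.8% (Uchl1) to 75.6% (Id4). The Ddx4 region covers 250 bases on the minus strand of chr13:112652311-112652560 (RefSeq, GRCm38.p6), and is shown because no other gene of the 10 set castaneus apart. Capitals mark the GC box, the CCAAT box and the E box CACGTG.
Ddx4: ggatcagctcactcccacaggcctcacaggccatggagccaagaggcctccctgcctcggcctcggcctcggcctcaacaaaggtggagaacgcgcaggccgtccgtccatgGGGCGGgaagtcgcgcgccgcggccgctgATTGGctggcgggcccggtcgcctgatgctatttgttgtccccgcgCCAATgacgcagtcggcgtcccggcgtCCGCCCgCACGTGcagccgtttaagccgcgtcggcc
The E box lay 29 bases before the start, and 6.02% of all windows held one. The GC box and the CCAAT box occurred 2 times each. Of the other 7 genes, 5 had a window in the table: Mcam, Id4 and Crabp1 held 5 GC boxes each, Id4 also held 2 CCAAT boxes, Dazl held 1 CCAAT box, and Uchl1 held none of the motifs searched. The Mcam window also held 1 cyclic AMP response element, TGACGTCA, which 1.55% of all windows did.

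**Figure D3:**
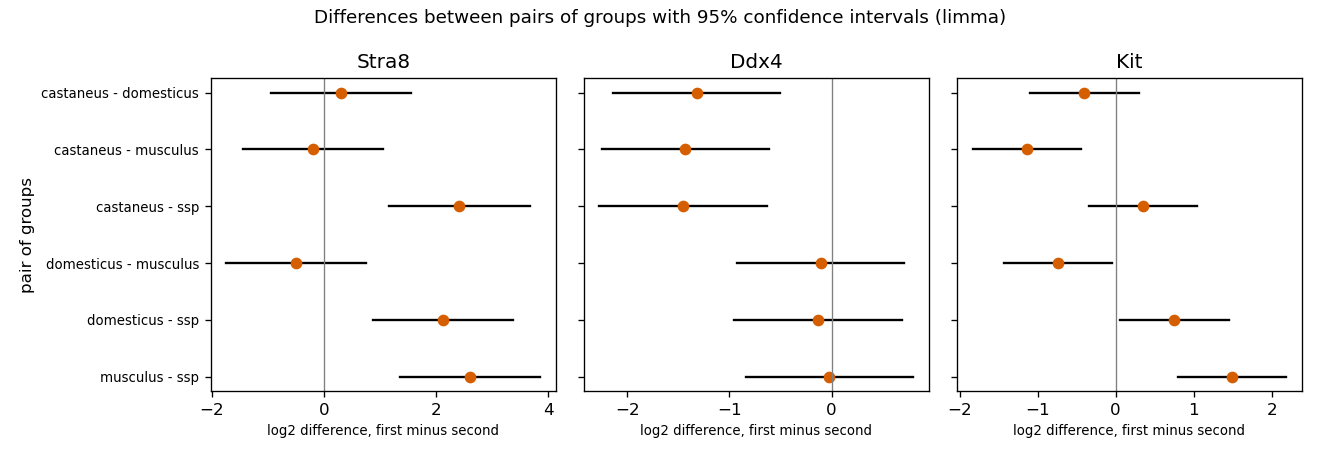
Log2 differences between the 6 pairs of groups (horizontal axis, first minus second) for Stra8, Ddx4 and Kit, with points for the estimates and lines for 95% confidence intervals from limma. The intervals of Stra8 leave out 0 in the 3 pairs with ssp, and those of Ddx4 in the 3 pairs with castaneus.

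Dazl, an RNA-binding protein that controls translation in germ cells and is needed for their commitment, had no group apart by either probe set. The probe set 94750_at read 3941.3 and 1090.0 in castaneus, 2893.7 and 1375.9 in domesticus, 2852.5 and 937.6 in musculus, and 3043.3 and 1076.8 in ssp. In every group the array numbered 1 was the brighter, by 3.62, 2.10, 3.04 and 2.83-fold, and the span of group means was 1.27-fold. Leaving out 1 array raised that span to between 1.51-fold and 2.41-fold, the latter without castaneus replicate 2; it was 2.21-fold without musculus replicate 1 and 1.92-fold without ssp replicate 1. The probe set 160357_at did not share this, at 240.8 and 210.7, 306.2 and 170.4, 140.2 and 306.6, and 213.8 and 283.6 in the same order. Its group means spanned 1.19-fold, with a 95% interval of 0.541 to 2.61 for ssp over musculus.

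The array numbered 1 was also the brighter in all 4 groups for Dmrt1, Ddx4 and Id4. This made 4 of the 12 probe sets, against 12.7% of all tested, and the reverse held for 0 of 12, against 11.3%. The fold between arrays 1 and 2 ran from 1.27 to 1.43 for Ddx4 and from 1.15 to 1.48 for Id4.

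The 2 probe sets of Zbtb16 ordered the groups differently, with the ssp mean highest by one and lowest by the other. Its product represses differentiation and maintains stem spermatogonia. By 92201_at it read 36 and 187.5 in castaneus, 61.5 and 47.4 in domesticus, 171.7 and 121.8 in musculus, and 207.4 and 178.6 in ssp. The castaneus arrays differed 5.21-fold and spanned nearly the whole range of the others. Ssp was 3.56-fold above domesticus (95% interval 1.05 to 12; limma, adjusted p = 0.386). By 92202_g_at the ssp mean was the lowest, because its first array, at 10.5, lay below the floor while the second read 100.5. The other 6 arrays of that probe set lay between 63.3 and 132.8. The span of its group means was 2.23-fold, 1.14-fold without ssp replicate 1 and 5.16-fold without ssp replicate 2, and that of 92201_at was 5.35-fold without castaneus replicate 2. The closest probe sets of other genes to 92201_at were those of Zfp36 (r = 0.966), Atf3 (0.964) and Des (0.960), high values again being given by the choice.

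Id4 and Uchl1 had group means spanning 1.20-fold and 1.30-fold, below the median of 1.75-fold for all tested probe sets. Id4, an inhibitor of helix-loop-helix factors, read 416.9 and 281.3 in castaneus, 333.5 and 259.3 in domesticus, 370.2 and 267.3 in musculus, and 378.6 and 330.0 in ssp. The groups overlapped, and ssp was 1.20-fold above domesticus (95% interval 0.700 to 2.06). Uchl1, a deubiquitinating enzyme of spermatogonia and neurons, read 1340.9 and 1392.3 in castaneus, 1056.9 and 1038.9 in domesticus, 1205.5 and 1250.4 in musculus, and 1564.3 and 1095.2 in ssp. Both domesticus arrays lay below the other 6. The difference was small: castaneus was 1.30-fold above domesticus, with a 95% interval of 0.839 to 2.03 (limma, adjusted p = 0.693). Uchl1 had the smallest pooled spread between replicate arrays of the 12 probe sets, at 0.18 log2, and Dazl 94750_at the largest, at 1.08.

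Mcam, an adhesion molecule of endothelium and smooth muscle that is also found on spermatogonia, read 132.8 and 180.0 in castaneus, 211.1 and 197.4 in domesticus, 161.1 and 142.3 in musculus, and 67.1 and 230.3 in ssp. The 2 ssp arrays were the lowest and the highest of the 8, a 3.43-fold gap within the group. The span of group means, 1.64-fold, was 3.04-fold without ssp replicate 2. The 8 endothelial markers tested went the opposite way between these arrays, with summed intensities of 1468 and 838 on the first and second ssp arrays and 1217 to 1883 on the others. Their part in the Mcam values was not tested.

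**Figure D4:**
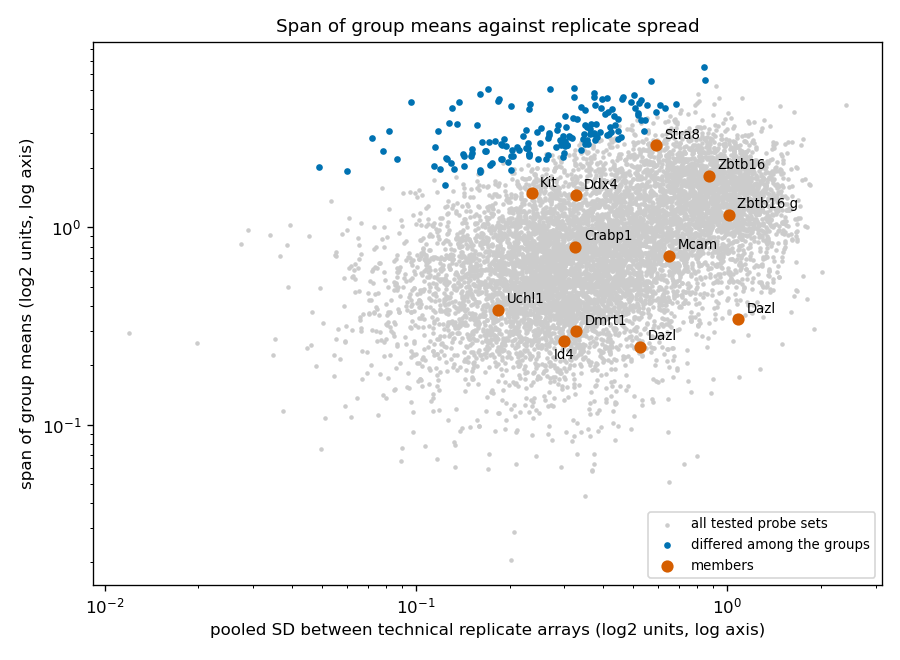
Span of the 4 group means (vertical axis, log2 units on a log axis) against the pooled SD between technical replicate arrays (horizontal axis, log2 units on a log axis) for 8874 tested probe sets, with those that differed among the groups in blue and the 12 described here in orange; Zbtb16 g is 92202_g_at. Stra8, Kit and Ddx4 lie below the blue points of like spread, and Dazl 94750_at lies far to the right with a small span.

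Among 49 other genes of spermatogonia and early germ cells, 25 were tested and 1 passed (1.76% of all probe sets), namely Cd24a. It encodes a surface glycoprotein carried by many cell types, and it read 69.4 and 73.9 in castaneus, 280.5 and 121.9 in musculus, 213.0 and 379.2 in ssp, and 1007.6 and 1006.6 in domesticus. The domesticus arrays lay above and the castaneus arrays below all others, a 14.1-fold span (limma, adjusted p = 0.048). The call was lost in each of the 8 fits that left out 1 array. At an unadjusted p under 0.05 there were 4 of 25, or 16% against 15.9% of all, and the median span was 1.11 log2 against 0.81 for all tested. The next widest were Utf1, a chromatin factor of undifferentiated cells, at 5.39-fold with its highest mean in musculus, and Id1, at 4.61-fold, neither with a group apart. Gfra1 and Ret, the receptor pair for GDNF, which sustains stem spermatogonia, were too dim to be tested.

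Of 29 genes of retinoic acid synthesis, transport and reception, 12 were tested, 0 passed the F test by the probe set with the highest mean (limma; 1.76% of all probe sets) and 3, or 25%, had an unadjusted p under 0.05 (15.9% of all). The median span was 1.23 log2, against 0.81 for all tested. Rxra, a partner of the retinoic acid receptors, read 1306.3 and 1674.5 in ssp and 242.9 to 550.4 in the others, a 4.41-fold span that did not pass (adjusted p = 0.0942). Its second probe set was also highest in ssp, at 651.9 and 613.6 against 165.7 to 357.8. Stra6, a retinol transporter, spanned 3.89-fold. Rdh11, a retinal reductase, spanned 3.67-fold with both musculus arrays lowest. A second Rdh11 probe set, 99592_f_at, with a suffix for probes that may match related transcripts, was 7.29-fold higher in castaneus than in musculus and passed in that pair (limma, adjusted p = 0.0449).

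Of 22 partners and paralogs of Dmrt1, Zbtb16 and Id4, 13 were tested, 0 passed (limma; 1.76% of all probe sets) and 2, or 15.4%, had an unadjusted p under 0.05 (15.9% of all). The median span was 0.73 log2, against 0.81 for all tested. Ascl2, a helix-loop-helix factor, spanned 3.62-fold and was highest in ssp. Uchl5, a proteasome-bound relative of Uchl1, spanned 2.65-fold with both musculus arrays lowest, at 213.4 and 149.9. Tcf3, which Id proteins bind, spanned 2.28-fold.

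Most markers of meiotic and later germ cells found on the array were bright enough to be tested. All 12 spermatid genes found on the array were tested, among them the protamines Prm1 and Prm2. None of the 12 passed (limma), against 1.76% of all probe sets, and 0 had an unadjusted p under 0.05, against 15.9% of all. In lists of this size, a count of 0 passing is near the background. Of 7 spermatocyte genes found, 6 were tested and 0 passed (1.76% of all), with 1 at an unadjusted p under 0.05 (15.9% of all). Sycp3 was below the floor on 7 of 8 arrays. Of 11 nerve and neuron genes found, 6 were tested and 0 passed (limma, 1.76% of all), with 0 at an unadjusted p under 0.05 (15.9% of all). The sum of these 6 was 1227 to 1852, with 4 of the 6 highest in musculus. Of the 11, 1 (Snap25) was below the floor on all arrays.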

How the data were processed

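The authors deposited a linear intensity for each probe set on each array. The sources used here do not give the probe summary, the scaling or the software. The mean after trimming 2% at each end was 495.65 to 496.7 on all arrays, so arrays had already been scaled, and array medians ran from 151.2 to 182.6. The number of arrays limits the precision.

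A floor was set at 18.7, the 10th percentile over all arrays, before taking log2. Probe sets reaching their array's 40th percentile (94.7 to 118.9) on at least 2 arrays were tested. All 12 described here passed, on 3 (Zbtb16 by 92202_g_at) to 8 arrays. limma 3.58.1 (R 4.3.3) fitted 1 mean per group over 8 arrays with empirical Bayes, and Benjamini-Hochberg adjustment ran over all probe sets, within each pair for pairs. Group values are geometric means, and intervals use the moderated standard errors. The fit was tested on simulated data.

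Symbols came from the platform annotation, updated by Entrez number to RefSeq (GRCm38.p6); 10833 probe sets had 1 symbol, 396 several and 1193 none, and 10817 matched. Where a listed gene had several tested probe sets, the brightest on average stood for it. Named from the lists are the called genes and the 3 with the widest span, and for the 3 widest of the 12 probe sets the 3 most correlated others. Values of other genes (Kitl, Gfra1, Ret, Prm1, Prm2, Sycp3, Snap25 and mast cell genes) were added after seeing the data. The genes described, the lists and the tests were chosen with earlier results of these data known. Promoter sequences for 8 of the 10 genes came from a RefSeq table, kept to the 250 bases before each start.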

Additional observations from a re-analysis of the deposited data

How the results depend on the processing

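The alternatives were 2 other floors, 2 other filters, 2 scalings, another variance model, a replicate block, fits on the 4 arrays of a pair and fits without 1 array. There were 370 alternative values for the spans and the 11 pair differences with an unadjusted p under 0.05. Of these, 365 stayed on their side of the threshold and 5 passed it, and no pair difference changed direction. A span cannot change direction, and a pair difference is unchanged when the array left out belongs to neither group. Several spans were also far from the threshold, so the count of 365 says little about stability. The count of probe sets differing among the groups, 0, became 1 (Ddx4) with a trended and robust prior, and the count over pairs, 0, became 3 with that prior and 1 (Kit) with the filter at the 60th percentile, which left 5882 probe sets. Without 1 array both counts stayed 0 in all 8 fits, where limma called 7 to 43 of all probe sets. The count of other spermatogonial genes that differed, 1 (Cd24a), became 0 with the floor at the 5th percentile, without a filter, with the replicate block, and in all 8 fits without 1 array (range 0 to 0). The causes were not tested.

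Differences between same-numbered arrays correlated by 0.03 to 0.17 between groups across probe sets, so the numbers were not taken to pair the samples. With the replicate block 0 of the 12 probe sets passed, with Ddx4 at an adjusted p of 0.0876. Median centring moved single arrays by -0.12 to 0.15 log2. Low signal limits Stra8 and Zbtb16.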
